A study of Rattus norvegicus with 14 samples.

Results

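The genes described here are the 6 mitochondrially encoded subunits of respiratory complexes III, IV and V that were chosen by Ensembl ID: mt-Cyb (ENSRNOG00000031766), mt-Co1 (ENSRNOG00000034234), mt-Co2 (ENSRNOG00000030371), mt-Co3 (ENSRNOG00000030700), mt-Atp6 (ENSRNOG00000031979) and mt-Atp8 (ENSRNOG00000033299). All 6 IDs were among the 12934 IDs of the count table and all 6 passed the filter on low counts. The symbols came with the list of IDs. Neither the files nor the rat gene table used here, which matched 0 of the 12934 IDs, give names for them, so the symbols were not checked against a second source.

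The libraries came from sieved cortical glomeruli, the kidney's filtering tufts. The rats were male and of the inbred Dahl strain SS/JrHsdMcwiCrl, whose blood pressure rises with dietary salt. One group of 7 libraries came from rats fed 4% NaCl (high salt) and the other 7 from rats fed 0.4% NaCl (normal salt), both for 21 days from 8 weeks of age. Each library carries a sample number between 9 and 24, odd in the high salt group and even in the other. What the number stands for, and whether each library is a separate rat, is not stated in the labels. The p-values therefore measure library-to-library spread, which may be technical.

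Mitochondrial DNA encodes a small set of proteins, all of them subunits of the respiratory chain or of ATP synthase, and the nucleus encodes the remaining subunits of the same complexes. The mitochondrial genes are transcribed together as long precursors that are cut into separate mRNAs, most of which receive short poly(A) tails. Complex III passes electrons to cytochrome c, complex IV hands them to oxygen, and complex V uses the resulting proton gradient to make ATP. In the kidney, tubule cells, above all those of the proximal tubule and thick ascending limb, are richer in mitochondria than cells of the glomerulus.

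The libraries were 3' tag libraries, in which an mRNA is read near its 3' end, so that counts do not grow with transcript length. They held 13797146 to 18151197 counts each, of which 8318827 to 12095571 fell outside the 6 genes. Exact binomial 95% intervals for a share of counts in 1 library were at most 0.0508 percentage points wide, which covers counting error only. Markers of podocytes, tubules or blood could not be read, because the IDs carry no names. In such bulk samples a change in the makeup of cells and a change in RNA per cell cannot be told apart.

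The 6 genes together took a large and variable share of the tags. Their summed share of all counts was 21.6%, 32% and 48.9% at its lowest, median and highest over the 14 libraries. The lowest value was in high salt replicate 21 and the highest in high salt replicate 15, so the extremes of both kinds lay in the same diet. Replicate 21 also had counts for the fewest IDs, 12499 against 12682 to 12863 in the other libraries, and replicate 15 had the next lowest number and the fewest counts outside the 6 genes. Over 14 libraries the summed share correlated with the counts outside the 6 genes at r = -0.65 (permutation p = 0.0127, adjusted p = 0.0382 over 3 measures; rho = -0.49, permutation p = 0.0755, adjusted p = 0.205). These counts are the rest of the same totals, so the 2 measures are not independent and a negative r is partly built in. The permutation p-values take no correlation as their reference, so they are not evidence of a link beyond this. The library total, also compared, is the denominator of the share. The correlation over 14 libraries rested on those numbered 15 and 21, whose summed shares lay at the greatest distance from the middle value. With both left out r was -0.27 (permutation p = 0.391). Within diets r was -0.54 on normal salt (exact permutation p = 0.214) and -0.77 on high salt (exact permutation p = 0.0377). For the library total r was 0.48 (permutation p = 0.0844; rho = 0.42, permutation p = 0.137), and for the number of IDs with counts r was 0.07 (permutation p = 0.806; rho = -0.20, permutation p = 0.486).

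**Figure D1:**
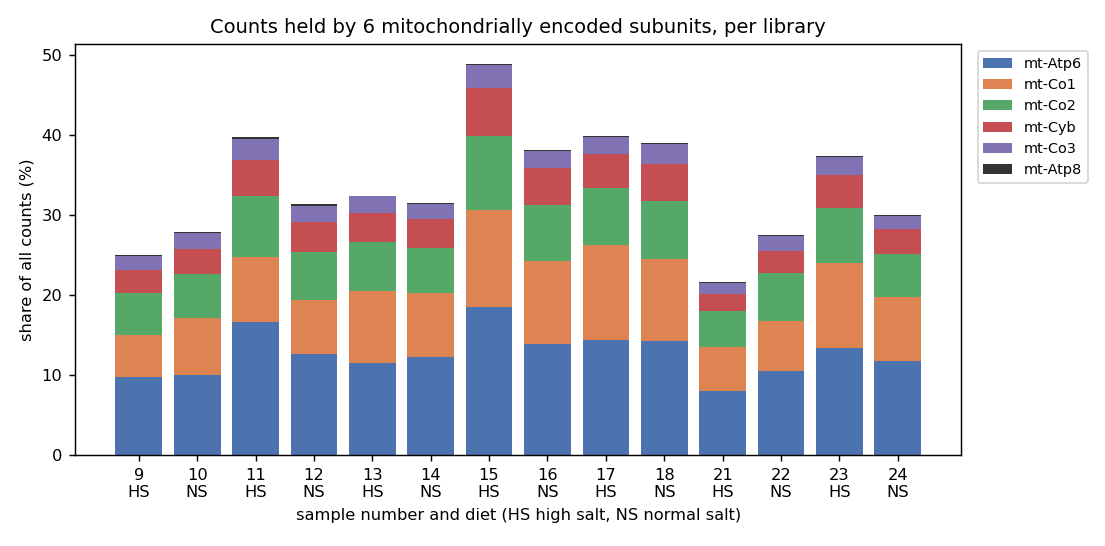
Stacked bars give the percent of all counts held by each of the 6 genes in each library, ordered by sample number, with the diet under each bar. The bars run from 21.6% in number 21 to 48.9% in number 15, and mt-Atp6 is the widest band in every library.

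The order of the 6 genes by tags was the same in 14 of 14 libraries: mt-Atp6, mt-Co1, mt-Co2, mt-Cyb, mt-Co3 and mt-Atp8. mt-Atp6, the ATP synthase subunit that lines the path of protons through the membrane, ranked 1 among all IDs in every library. mt-Co1, the catalytic subunit of cytochrome c oxidase, ranked 2 in every library. mt-Co2, which takes electrons from cytochrome c, ranked 3 or 4. mt-Cyb, the only subunit of complex III that mitochondrial DNA encodes, ranked between 5 and 7, and mt-Co3, a complex IV core subunit without a redox centre, ranked 7 or 8. Thus 5 of the 6 genes were among the 10 most abundant IDs in each library.

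mt-Atp8, a small membrane subunit of ATP synthase, stood apart from the other 5 genes. It ranked between 17, in high salt replicates 11 and 15, and 77, in high salt replicate 21, with a median rank of 24. In these libraries mt-Co3, the next gene above it, had 11.4 to 18.4 times as many counts. The reading frames of mt-Atp8 and mt-Atp6 overlap on a shared mRNA, with mt-Atp8 upstream, and 3' tags are read near the end of an mRNA. The sources used here do not say how reads in the overlap were assigned, so the split of counts between mt-Atp8 and mt-Atp6 is uncertain. Nuclear copies of mitochondrial sequence can also share reads with any of the 6 genes.

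Neighbours in this order were separated by different margins. mt-Atp6 had 1.21 to 2.06 times the counts of mt-Co1, with a median of 1.46. mt-Co1 had 1.02 to 1.68 times the counts of mt-Co2, and in high salt replicate 9 the pair was nearly level. mt-Co2 exceeded mt-Cyb by 1.54 to 2.17 times, and mt-Cyb exceeded mt-Co3 by 1.54 to 2.15 times. The shares of mt-Atp6 and mt-Co1 overlapped across libraries, as did those of mt-Co1 and mt-Co2. The shares of mt-Co2 and mt-Cyb also overlapped, as did those of mt-Cyb and mt-Co3. For the 5 abundant genes the fixed order therefore holds within a library rather than between libraries. The highest mt-Atp8 share, 0.199%, lay below the lowest mt-Co3 share, 1.37%, so the last place of mt-Atp8 holds between libraries too.

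Within the counts of the 6 genes, complex IV held about as much as complexes III and V combined. The complex IV subunits mt-Co1, mt-Co2 and mt-Co3 made up 50.6% ± 2.22 of the 6-gene counts (SD, n = 14), the complex V subunits 38.2% ± 1.98 and mt-Cyb 11.2% ± 0.75. These proportions moved little while the summed share of the library more than doubled: complex IV stayed between 46% and 53.1%, complex V between 36% and 42.4%, and mt-Cyb between 9.95% and 12.3%. mt-Co1 was the least steady of the 5 abundant genes in percentage points, at 20.4% of the 6-gene counts in high salt replicate 11 and 29.9% in high salt replicate 17. Complex IV held 50.8% ± 2.77 in high salt libraries and 50.4% ± 1.7 in normal salt libraries (SD over 7 in both), which differ by 0.405 points (exact permutation test, two-sided, p = 0.75, adjusted p = 0.808 over the 3 complexes).

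All 6 genes had higher means on high salt after scaling, by 1.13 to 1.25 times, and 0 of 6 passed the test. In the comparison of the diets edgeR's quasi-likelihood test called 0 of 11158 IDs at an adjusted p below 0.05, or 0% of those tested, and 202 (1.81%) had an unadjusted p below 0.05. None of the 6 genes had an unadjusted p below 0.05. DESeq2, run on all 12934 IDs, and limma voom, run on the same 11158, also called 0 IDs. They had 343 (2.65%) and 562 (5.04%) at an unadjusted p below 0.05. The median log2 fold change of the 6 genes was 0.31, against -0.002 over all IDs tested, where the median absolute value was 0.11. The scaling itself places most IDs near 0. With library totals only, the median over all IDs was -0.09. The SEs of the 6 genes were 0.25 to 0.30, against a median of 0.18 over all IDs. This fit leaves out sample number. With the number as covariate, 468 of 11158 IDs (4.19%) had an unadjusted p below 0.05 by edgeR's test. With blocks joining each odd number to the even number after it, 665 (5.96%) did. Both fits called 0 IDs. With the blocks the SEs of the 6 genes were 0.17 to 0.19, against a median of 0.14. The lowest unadjusted p of the 6 there was 0.276, for mt-Co2. The 6 genes rise and fall together between libraries, so 6 positive values are not 6 separate observations.

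The shares by diet overlapped for each gene. mt-Atp6 held 7.98%, 13.4% and 18.5% of counts at the lowest, median and highest high salt library, against 9.99%, 12.2% and 14.2% among normal salt libraries. Every normal salt library lay inside the range of the high salt libraries. Its log2 fold change was 0.31 ± 0.29 (SE, n = 7 per diet; edgeR quasi-likelihood, unadjusted p = 0.292, adjusted p = 0.9997), with a 95% interval of 0.816 to 1.88 as a fold.

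mt-Co1 held 5.27%, 8.96% and 12.2% on high salt and 6.27%, 8% and 10.4% on normal salt, again as lowest, median and highest. Its high salt values split into a low pair, 5.27% and 5.51% in replicates 9 and 21, and others from 8.1% upward. The log2 fold change was 0.32 ± 0.30 (SE; edgeR's test, unadjusted p = 0.307), or 1.25-fold with a 95% interval of 0.8 to 1.95.

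mt-Co2 held 4.54%, 6.86% and 9.25% on high salt and 5.27%, 5.97% and 7.2% on normal salt. Its log2 fold change was 0.31 ± 0.26 (SE; edgeR's test, unadjusted p = 0.251), the lowest p of the 6 genes. mt-Co3 held 1.37%, 2.16% and 2.82% on high salt and 1.73%, 1.99% and 2.52% on normal salt. Its log2 fold change was 0.28 ± 0.25 (SE; edgeR's test, unadjusted p = 0.293). For both complex IV subunits the high salt range enclosed the normal salt range.

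mt-Cyb held 2.15%, 4.08% and 6.01% on high salt and 2.76%, 3.61% and 4.63% on normal salt. Its log2 fold change was 0.31 ± 0.30 (SE; edgeR's test, unadjusted p = 0.325). mt-Atp8 held 0.0856%, 0.137% and 0.199% on high salt and 0.106%, 0.146% and 0.175% on normal salt. Its log2 fold change was 0.17 ± 0.25 (SE; edgeR's test, unadjusted p = 0.504), the smallest of the 6. The adjusted p of all 6 genes was 0.9997, and over the 6 genes the 95% intervals reached down to 0.779-fold and up to 1.95-fold. In the authors' deposited table the fold was between 1.13 for mt-Atp8 and 1.25 for mt-Co1.

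**Figure D2:**
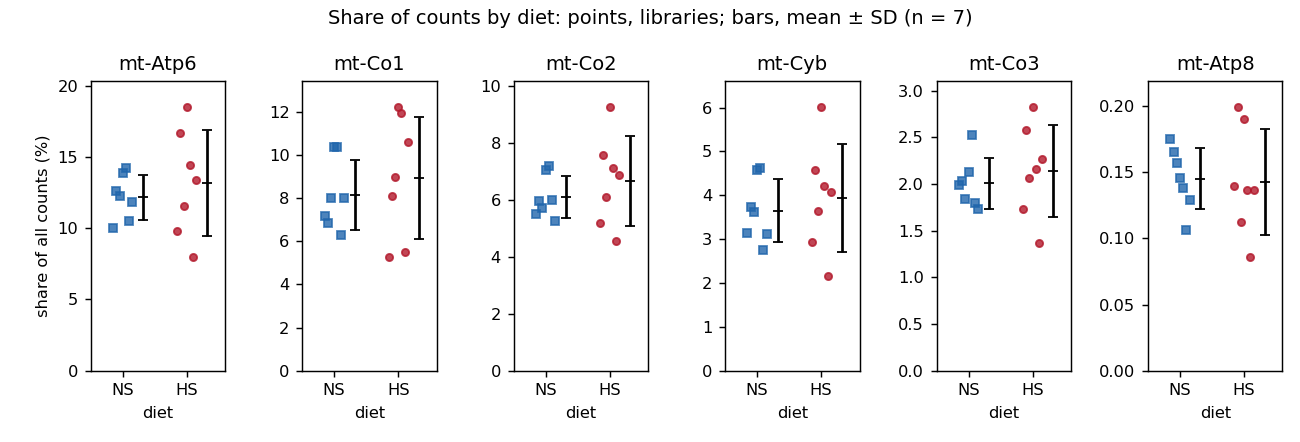
Each panel gives the percent of all counts held by 1 gene, with a point per library (NS normal salt, HS high salt) and the mean ± SD of 7 libraries beside the points. The 2 diets overlap in every panel, and the high salt points spread more widely than the normal salt points.

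As a share of the whole library, the 6 genes took up 35% ± 9.4 of a high salt library and 32.2% ± 4.63 of a normal salt library (SD over 7 libraries in both diets). The difference of 2.79 percentage points did not exceed the spread between libraries (two-sided exact permutation p = 0.497, adjusted p = 0.712 over 7 shares). It rested on single libraries: without high salt replicate 15 it was 0.471 points, and without high salt replicate 21 it was 5.02 points. Without replicate 15 the log2 fold changes after scaling lay between -0.04 for mt-Atp8 and 0.10 for mt-Co1. Without replicate 21 they lay between 0.33 for mt-Atp8 and 0.47 for mt-Cyb, with no gene at an unadjusted p below 0.05. On the scale of library totals, without further scaling, the log2 fold change of mt-Atp8 was -0.02 and those of the other 5 genes lay between 0.09 for mt-Co3 and 0.14 for mt-Co1, against 0.28 to 0.32 after TMM scaling. With limma voom the log2 fold changes of these 5 lay between 0.18 and 0.24, and in blocks of consecutive numbers between 0.18 and 0.21.

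The high salt libraries were more spread out than the normal salt libraries, by a margin that did not pass the test. The summed share lay on average 7.06 points from its median on high salt and 3.33 points on normal salt (exact permutation test of the distances, two-sided, p = 0.172, adjusted p = 0.301 over 7 shares). For mt-Atp6 the distances were 2.88 and 1.2 points (exact permutation p = 0.0682, adjusted p = 0.301). This comparison was added after the values were seen. Compared with most other genes, the 6 varied strongly in log2 CPM (library-scaled counts, after correction by the trimmed mean of M-values, TMM). The SD over 14 libraries was between 0.5 for mt-Co3 and 0.61 for mt-Cyb. Over 6765 IDs with a mean of at least 10 CPM the median SD was 0.26 and the 90th percentile 0.5. The 2 other IDs most like the 6 genes, given below, had SDs of 0.52 and 0.5.

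Because the 6 genes moved together, ratios within a library among mt-Atp6, mt-Co2, mt-Cyb and mt-Co3 were steadier than their shares. The SD over 14 libraries of the log2 share was 0.27 for mt-Co2 and 0.27 for mt-Co3, while that of their log2 ratio was 0.09. mt-Co2 had 2.77 to 3.35 times the counts of mt-Co3. The ratio of mt-Atp6 to mt-Co2 had an SD of 0.11 and that of mt-Atp6 to mt-Cyb 0.11 on the log2 scale. Ratios with mt-Co1 or mt-Atp8 were looser, with an SD of 0.23 for mt-Co1 over mt-Co2, 0.25 for mt-Atp6 over mt-Atp8 and 0.41 for mt-Co1 over mt-Atp8. The last of these exceeded the SD of the log2 share of either gene, 0.39 for mt-Co1 and 0.33 for mt-Atp8. mt-Co1 and mt-Atp8 were thus the members that departed most from the common movement.

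Some libraries departed from the others in single ratios. mt-Co1 and mt-Co2 were closest, at ratios of 1.02 to 1.14, in high salt replicates 9 and 11 and normal salt replicates 12 and 22. The other 10 libraries had ratios of 1.21 to 1.68. mt-Co2 had 2.11 and 2.17 times the counts of mt-Cyb in high salt replicate 21 and normal salt replicate 22, and 1.54 to 1.77 times in the other 12 libraries. Both of these departures occurred on both diets.

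No ratio among the 6 genes differed between the diets beyond the spread of the libraries. None of 15 pairs passed (lowest exact permutation p = 0.311, lowest adjusted p = 0.988), and the differences in log2 ratio between diets lay between -0.03 and 0.16. mt-Atp6 over mt-Atp8 was 6.53 ± 0.2 on the log2 scale in high salt libraries and 6.4 ± 0.3 in normal salt libraries (SD, n = 7 each; exact permutation p = 0.374). mt-Co2 over mt-Co3 was 1.64 ± 0.08 and 1.61 ± 0.1 (exact permutation p = 0.533). The difference in mt-Co1 over mt-Co2 was -0.01 ± 0.13 (SE, exact permutation p = 0.939). A second exact test swapped the diets within consecutive numbers, a pairing the labels do not name. Its lowest p was 0.0781, for mt-Atp6 over mt-Atp8, without adjustment over the 15 pairs.

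**Figure D3:**
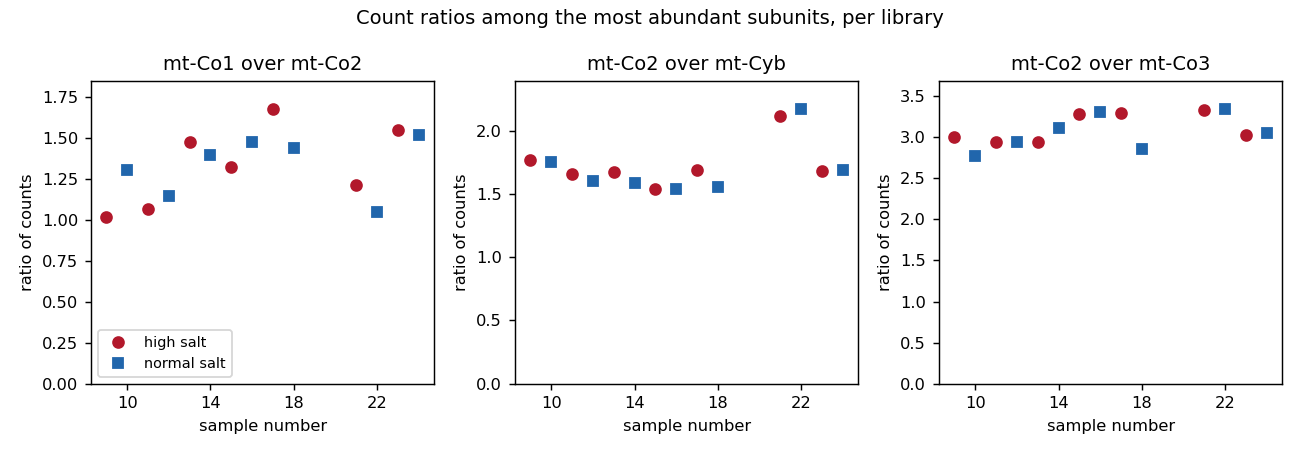
Linear ratios of counts per library for 3 pairs of genes, against sample number, with high salt as circles and normal salt as squares. mt-Co2 over mt-Co3 stays between 2.77 and 3.35, while mt-Co2 over mt-Cyb is high, at 2.11 and 2.17, in numbers 21 and 22.

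With sample number, 0 of the 6 genes were called for a trend. At the rate of calls over all IDs, this does not set them apart. With diet in the model, edgeR's quasi-likelihood test called 1418 of 11158 IDs for a trend (12.7%), 778 higher (6.97%) and 640 lower (5.74%) at higher numbers, and 0 of the 6 genes. Over the libraries left out in turn that count was lowest, at 451, when normal salt replicate 22 was dropped. It also moved by more than 1.5 times when number 9 (547), 10 (513), 12 (762) or 21 (926) was dropped. mt-Atp8 had the largest fitted change from number 9 to number 24, a log2 change of -0.63 ± 0.39 (SE; edgeR's test, unadjusted p = 0.121, adjusted p = 0.273). mt-Cyb, mt-Co3, mt-Atp6 and mt-Co2 had fitted changes of -0.24, -0.21, -0.13 and -0.09 and mt-Co1 of 0.21, each with an SE between 0.43 and 0.54. The median SE over all IDs tested was lower, at 0.26. The 95% intervals of the 6 genes were wide, from 0.365-fold for mt-Atp8 to 2.56-fold for mt-Co1.

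**Figure D4:**
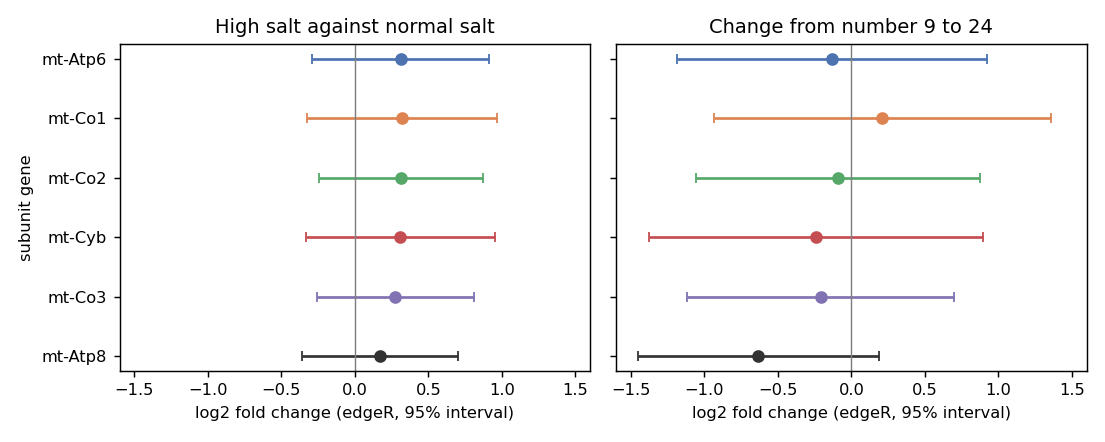
Points give the log2 fold change by edgeR and bars its 95% interval for each gene, for high salt against normal salt (left) and for the fitted change from number 9 to number 24 (right). All 12 intervals include 0; those for the number are wider.

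No trend of the summed share with the number was detected over 14 libraries (Pearson r = -0.04, permutation p = 0.902; Spearman rho = 0.02, permutation p = 0.963). Leaving out numbers 23 and 24, which lie farthest from the median, gave r = -0.04. Within the normal salt group r was -0.01 (exact permutation p = 0.979), and within the high salt group -0.02 (exact permutation p = 0.96). Of the 7 shares only that of mt-Atp8 had an unadjusted p below 0.05, with r = -0.59 (permutation p = 0.0262, adjusted p = 0.183 over 7 shares) and rho = -0.65 (permutation p = 0.0138, adjusted p = 0.0963). With numbers 23 and 24 left out its r was -0.65 (permutation p = 0.0224).

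The mt-Atp8 share lay along the number most closely on normal salt. In normal salt replicates 10, 12, 14, 16, 18, 22 and 24 it was 0.175%, 0.165%, 0.157%, 0.146%, 0.138%, 0.106% and 0.129% of counts. In high salt replicates 9, 11, 13, 15, 17, 21 and 23 it was 0.139%, 0.199%, 0.113%, 0.19%, 0.137%, 0.0856% and 0.137%. The normal salt values fall with the number except for the last, and the high salt values show no such order, with the highest in numbers 11 and 15. On normal salt r was -0.92 (n = 7, exact permutation p = 0.00337, adjusted p = 0.0472 over the 14 tests of 7 shares in 2 diets) and on high salt r was -0.44 (n = 7, exact permutation p = 0.317, adjusted p = 0.99). With each normal salt library left out in turn r lay between -0.99 and -0.88, and the adjusted p was below 0.05 only without replicate 22 or 24. Without replicate 10, 12, 14, 16 or 18 it was between 0.136 and 0.253, with 6 libraries remaining. The difference between the diets in this trend was not tested. As log2 CPM after TMM scaling the normal salt r was -0.82 (exact permutation p = 0.023), and as a percent of the 6-gene counts it was -0.74 (exact permutation p = 0.0603), with -0.67 (exact permutation p = 0.0992) on high salt.

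The ratio of mt-Atp6 to mt-Atp8, genes of a shared mRNA, was lower in the first numbers except number 13, at 103. It was between 57.1 and 83.8 in numbers 9, 10, 11, 12 and 14, and between 91.5 and 105 in the other 9 libraries. Over 14 libraries its log2 correlated with the number at r = 0.64 (permutation p = 0.0125, adjusted p = 0.0781 over 15 pairs; rho = 0.59, permutation p = 0.03, adjusted p = 0.0968). Within diets r was 0.77 on normal salt (exact permutation p = 0.0369) and 0.60 on high salt (exact permutation p = 0.147). Without numbers 23 and 24 r was 0.70 (permutation p = 0.0108).

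**Figure D5:**
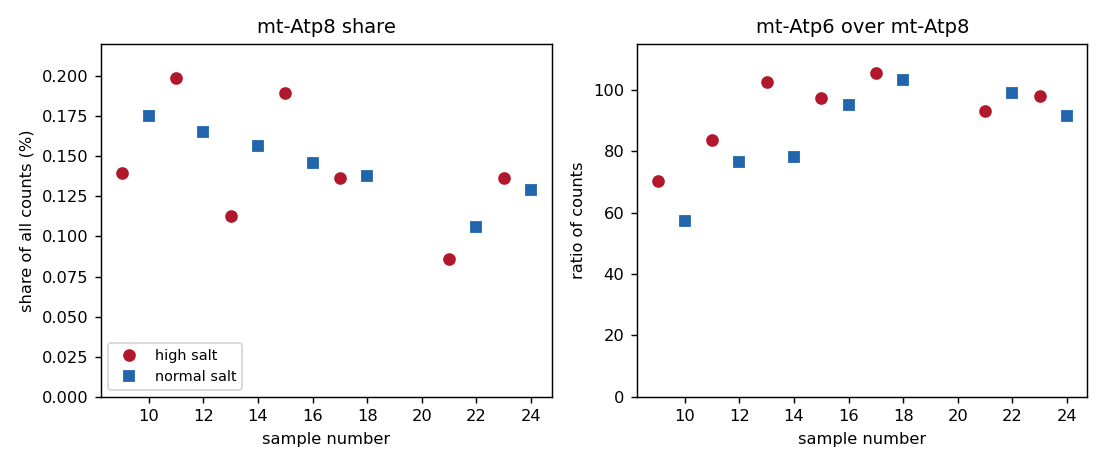
The left panel gives the mt-Atp8 share of all counts and the right panel the ratio of mt-Atp6 to mt-Atp8 counts, per library against sample number. The normal salt shares (squares) are highest in number 10, at 0.175%, and lowest in number 22, at 0.106%, and the ratio is lowest in number 10, at 57.1, and highest in number 17, at 105.

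mt-Co1 over mt-Cyb, a ratio between the catalytic subunit of complex IV and complex III's cytochrome b, had the highest correlation with the number of the 15 pairs. It was lowest, at 1.77, 1.8 and 1.83, in numbers 11, 9 and 12, and highest, at 2.84, in number 17. Its log2 gave r = 0.68 (permutation p = 0.0085, adjusted p = 0.0781 over 15 pairs; rho = 0.67, permutation p = 0.0106, adjusted p = 0.0968), with r = 0.62 among normal salt libraries (exact permutation p = 0.134) and 0.77 among high salt libraries (exact permutation p = 0.0558). Without numbers 23 and 24 r was 0.59 (permutation p = 0.043). In all, 5 of the 15 pairs had an unadjusted p below 0.05, of which 4 involve mt-Atp8, and 0 passed after adjustment. Pairs that share a gene are not separate observations. The count of pairs passing rested on single libraries: 5 pairs passed when high salt replicate 13 was left out, and 5 when normal salt replicate 24 was.

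The IDs whose pattern over the libraries was most like that of the 6 genes were also abundant. Among 6759 other IDs with a mean of at least 10 CPM, ENSRNOG00000033615 and ENSRNOG00000030644 had the highest correlation of log2 CPM with the summed 6 genes, r = 0.98 and r = 0.97 over 14 libraries that share their scaling factors. These IDs were picked for their r, so it is given without a p. ENSRNOG00000030644 held between 3.09% and 6.19% of counts, and ENSRNOG00000033615 between 0.614% and 1.36%. For both IDs the lowest share was in high salt replicate 21 and the highest in high salt replicate 15, as for the summed 6 genes.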

How the data were processed

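Glomerular RNA of 14 libraries was measured with Lexogen QuantSeq 3' tag libraries on an Illumina NextSeq instrument, per the labels' protocols. The authors deposited raw counts per Ensembl gene ID. Their second deposited table holds a normalized signal (each count over a constant of its library), the mean per diet, a signed fold score (the ratio of means, or minus its inverse where below 1) and the log2 of the ratio. Per the submitters' processing notes, R 3.4.3 and DESeq2 1.18.1 were used. The notes name GRCm38, a mouse build, while the IDs are rat IDs. Aligner and counting program: not given in the sources used here. No coordinates or sequences are printed.

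The test on counts was the quasi-likelihood F-test of edgeR 4.0.16 (R 4.3.3) with robust fitting, TMM factors and filterByExpr, and with Benjamini-Hochberg adjustment over the 11158 IDs kept. Diet was tested without a covariate and sample number with diet as covariate. Standard errors and 95% intervals were derived from the F statistic. Shares and log2 ratios were compared over the 3432 splits of 14 libraries into 7 and 7, and correlations with 100000 permutations or all orders of 7. Both were tested on simulated data first. Log2 CPM used a prior count of 2. The named genes were the 6 members and the 2 other IDs with the highest r. The 9 gene lists planned by symbol could not be applied. The members, lists and tests were chosen with earlier results of these data known. Alternatives were RLE, upper quartile and no factors, library sizes without the 6 genes, 2 other filters, DESeq2 1.42.0, limma 3.58.1, blocks of consecutive numbers, other denominators and leaving out each library. The comparison of spread and the adjusted tests within diets were added after the data were seen.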

Additional observations from a re-analysis of the deposited data

Results flagged for a closer look

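Among 7 shares and 15 log2 ratios examined in each diet, 1 of 44 groups of 7 libraries held a library far from the rest (by chance about 1 in 20 groups would). The log2 ratio of mt-Co2 to mt-Cyb was 1.12 in normal salt replicate 22, while the next highest normal salt library stood at 0.81 and the lowest at 0.62. The neighbouring number, high salt replicate 21, had 1.08.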

How the results depend on the processing

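In the fits across all IDs, none of the 6 genes passed for diet or for sample number under any alternative run (lowest adjusted p = 0.873 for diet and 0.168 for the number). These include the replicate block of consecutive numbers, which joins each odd number to the even number after it. This block was set for the fit, as the labels name no pairs and the diets share no number. With that block the log2 fold changes for diet were between 0.05 for mt-Atp8 and 0.21 for mt-Co2. Signs near 0 changed in some fits. With library totals only, mt-Atp8 stood at -0.022 for diet. With limma voom the log2 changes with the number were 0.054 for mt-Cyb, 0.16 for mt-Co2, 0.029 for mt-Co3 and 0.14 for mt-Atp6. Over a denominator without the 10 most abundant IDs the mt-Atp8 difference was 0.0296 points. Spearman's rho with the number was 0.029 for mt-Co2, 0.064 for mt-Atp6 and 0.015 for the summed share. IDs called for the number were 540 of 11158 with library totals only and 2215 of 12934 with DESeq2. Over the libraries left out in turn they were 451 to 2118, with 11227 to 11305 IDs tested. The cause was not tested. Over the same omissions the mt-Atp8 log2 fold change for diet ran from -0.0396 to 0.33. The change with the number ran from -0.56 to 0.078 for mt-Cyb, -0.15 to 0.52 for mt-Co1, -0.37 to 0.17 for mt-Co2, -0.47 to 0.055 for mt-Co3 and -0.42 to 0.17 for mt-Atp6. The diet difference in share ran from -0.052 to 0.59 points for mt-Cyb and -0.012 to 0.0073 points for mt-Atp8. The correlation of the share with the number ran from -0.00071 to 0.32 for mt-Co1, -0.22 to 0.055 for mt-Co2, -0.26 to 0.044 for mt-Atp6 and -0.20 to 0.12 for the sum. The diet difference in log2 ratio ran from -0.0697 to 0.0505 for mt-Co1 over mt-Co2 and -0.053 to 0.0903 for mt-Co1 over mt-Co3, and pairs passing for the number from 0 to 5. The mt-Atp8 correlation within normal salt ran from -0.99 to -0.88. Its adjusted test and its values on other scales were added after seeing the data. Counting error was small beside the spread between libraries, as each gene had at least 13213 counts in every library.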
